A study of Mus musculus with 16 samples.

Results

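The clustered protocadherins were followed through all 16 adipose libraries of the series. Members were the transcript entries whose RefSeq accession maps to a symbol of the Pcdha, Pcdhb, Pcdhga, Pcdhgb or Pcdhgc type, which gave 58 of the 130343 entries in the count table: 14 of the alpha cluster, 22 of the beta cluster and 22 of the gamma cluster, each gene with 1 entry. The gamma members divide into 12 of type A, 7 of type B and 3 of type C. The series holds bulk poly(A) RNA-seq of subcutaneous (SAT, inguinal) and mesenteric visceral (VAT) fat from 8 male wild-type C57BL/6J mice, 4 lean and 4 obese, and each mouse gave 1 library per depot. The obese mice ate a high fat diet with 42% of its energy from fat and 0.2% cholesterol, and the lean mice a normal laboratory chow. Both diets began at 10 weeks of age and ran for 12 to 14 months, which gives 4 groups of 4 libraries (SAT lean, SAT obese, VAT lean, VAT obese). Left and right inguinal fat of a mouse were pooled, and visible vessels had been cut away.

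Clustered protocadherins are cell surface adhesion proteins of the cadherin superfamily, best known from the nervous system, where a neuron switches on a small set of isoforms and the sets let the processes of a cell recognise each other. In the alpha and gamma clusters each variable exon has its own promoter and encodes the outside of the protein, the membrane span and part of the tail, and is spliced to constant exons that all isoforms of the cluster share. Beta members are intronless genes with no shared constant exons. Promoter choice is known to involve CTCF, cohesin and DNA methylation, the C-type isoforms are regulated apart from the rest, and the constant tail of alpha and gamma proteins inhibits focal adhesion kinases.

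The 3 clusters lie in a row on the plus strand of chromosome 18 in GRCm39, with alpha at chr18:37063338-37320716, beta at chr18:37397991-37657532 and gamma at chr18:37794846-37975014. By the GENCODE annotation of that build, a median of 53.5% of the exon length of an alpha member and 45.8% of that of a gamma member was shared with other members through the constant exons, while the median of beta members was 0%, with Pcdhb21 and its neighbour Pcdhb22 overlapping at their ends. How the counting handled shared reads was not given in the sources used here. Pcdha6, Pcdha7 and Pcdha11 had no count in any library although Pcdhac2, which carries the same constant exons, had 293, so reads of the constant exons had not been added to every isoform. The counts of 0 do not show whether some isoform received such reads. If Pcdhgc3 did, for example, its level and share would be too high. Levels are given per kb of each member's own exon sequence, as if no such reads were counted. Stretches of 75 bases found exactly in another member made up at most 15.7% of that own sequence. Among the 42 members tested, only Pcdhgb1 (13.3%) and Pcdhgb2 (13.5%), which match each other, were above 10%, so the values of this pair are less certain. Pcdhga8 and Pcdhga9 shared 2.43% of their windows, Pcdhb22 0.247% and Pcdhgc3 0%. An annotated gene on the opposite strand lay over the own exons of 13 tested members, Pcdhga8, Pcdhb22, Pcdhgb6, Pcdhgb7 and Pcdhgc3 included, and the kit kept strand but the strand setting of the counting was not given, so reads of these genes may be mixed.

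Library totals ran from 4604460 to 11897722 counts in SAT lean, 10828758 to 16614407 in SAT obese, 1256082 to 15802634 in VAT lean and 2247737 to 11615347 in VAT obese. VAT of lean mouse 1 and VAT of obese mouse 1 were the shallow libraries, in which a count of 1 equalled 0.796 and 0.445 CPM (counts scaled to a library total of 1000000), so low members are least precise there. Markers were in place for fat and for the depots: the summed CPM of 10 adipocyte markers ran from 33890 to 105749 over all libraries, and that of 9 mesothelial markers from 0.576 to 1.68 in the 8 SAT libraries and from 265 to 654 in the 8 VAT libraries. In bulk fat, a lower value can come from fewer cells of a type or from less RNA per cell, and the data cannot tell these apart. Genes known to be active in fat or in most cells, such as Pecam1, Ptk2 and Setdb1, were also listed at 0 in all 16 libraries of this table of transcript entries, so a 0 here does not show that a gene was silent. CPM values below carry the TMM factors of edgeR (trimmed mean of M values), and values listed for a group follow mouse 1 to mouse 4. Lean SAT and lean VAT each enter a depot and a diet comparison, as do the obese groups, so comparisons with a group in common are not independent.

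Adipose tissue of every group held reads of the beta and gamma clusters and almost none of the alpha cluster. Of 61929 counts on members in the 16 libraries together, gamma took 74.7%, beta 24.7% and alpha 0.614%. A count was present in all 16 libraries for 39 members, and 42 passed the study's filter of more than 1 CPM in at least 3 libraries: all 22 gamma members, 19 beta members and, of the alpha cluster, Pcdhac2 alone. Pcdha6, Pcdha7, Pcdha11 and Pcdhb1 had no count, which with 163373380 counts in all allows a level of counted reads of up to 0.0184 CPM each, for counting error only. Reads dropped in counting are not covered by that limit: another annotated gene lay on the same strand over the own exons of Pcdha4, Pcdha6 and Pcdha7, and how such reads were treated was not given.

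The 12 numbered alpha isoforms had 86 counts together over all libraries, 37 of them on Pcdha10, whose highest library was SAT of lean mouse 4 at 0.636 CPM. Pcdhac1, a C-type alpha isoform, had 1 count. Pcdhac2, the other C-type alpha isoform, had 0.906, 0.701, 1.42 and 0.636 CPM in SAT lean, 1.69, 0.950, 1.65 and 2.15 in SAT obese, 5.10, 2.38, 2.35 and 2.09 in VAT lean and 1.91, 2.38, 2.01 and 2.73 in VAT obese. Lean SAT lay below both VAT groups in every library, and the highest library, VAT of lean mouse 1, was the shallowest of the 16.

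The gamma C-type isoform Pcdhgc3 stood above all other members, with 21060 counts and 53.1 CPM per kb of own exon as the mean of 16 libraries. The next were Pcdhga5 with 7.52, Pcdhgb2 with 6.20, Pcdhga6 with 6.08 and Pcdhgb6 with 5.40 CPM per kb, each from a different promoter of the gamma cluster. Pcdhgc3 had 108, 111, 135 and 106 CPM in SAT lean, 155, 140, 127 and 127 in SAT obese, 181, 138, 159 and 134 in VAT lean and 173, 146, 136 and 105 in VAT obese. Each pair of its groups overlapped, and it made up 49.1% ± 2.79 (SD, n = 4), 46.4% ± 1.79, 44.5% ± 5.10 and 45.8% ± 2.81 of gamma CPM in the same order of groups. The other C-type gamma isoforms were low, Pcdhgc4 at 0.723 and Pcdhgc5 at 1.01 CPM per kb. Pcdhgc4 ran from 1.15 to 3.54 CPM over all libraries with no pair of groups apart, and Pcdhgc5 from 1.15 to 3.82 CPM. Pcdhgb2 had 11.3, 11.5, 12.3 and 13.8 CPM in SAT lean, 21.8, 17.6, 17.4 and 14.2 in SAT obese, 13.4, 19.1, 18.7 and 14.0 in VAT lean and 23.7, 16.5, 17.0 and 11.1 in VAT obese, with lean SAT below every obese SAT library.

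Within the beta cluster the level went with position. The 11 genes from Pcdhb1 to Pcdhb11 had a median of 0.304 CPM per kb (0 to 1.26), and the 11 from Pcdhb12 to Pcdhb22 a median of 1.03 (0.516 to 3.25). Spearman's rho between order and level was 0.63 over 22 genes that share the same libraries, a description only. Pcdhb22 at 3.25 and Pcdhb17 at 3.24 CPM per kb led the cluster, followed by Pcdhb16 at 1.63 and Pcdhb20 at 1.48. The gamma cluster showed less order, with rho of -0.17 over 22 genes.

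**Figure D1:**
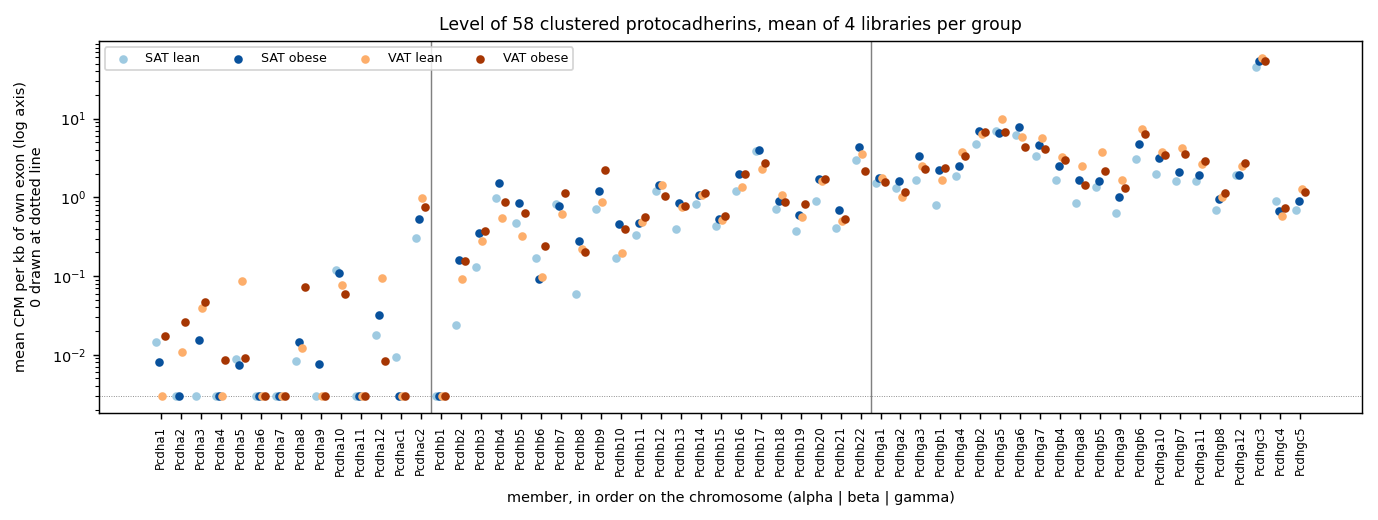
Mean CPM per kb of own exon (log axis) of the 58 members, in their order along the chromosome, with 1 point for each of the 4 groups (means of 4 libraries, members without a count at the dotted line). Pcdhgc3, at 53.1 over all libraries, lies above the rest, the numbered alpha isoforms lie at the bottom, and the beta genes climb from a median of 0.304 in the first 11 to 1.03 in the last 11.

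Summed over its members, the gamma cluster was lowest in lean SAT. Gamma sums were 233 ± 17.3 CPM (mean ± SD, n = 4) in SAT lean, 296 ± 32.6 in SAT obese, 343 ± 17.5 in VAT lean and 304 ± 44.2 in VAT obese. No lean SAT library (215 to 255) reached the lowest lean VAT (323) or obese SAT library (263), while the VAT groups overlapped each other, as did the depots of obese mice. Without the TMM factors lean and obese SAT overlapped and their log2 ratio went from 0.34 to 0.12, while lean SAT and lean VAT stayed apart. Of the 3 gamma types, B members had the widest depot gap in lean mice, from 36.0 ± 3.39 CPM in SAT to 71.0 ± 4.24 in VAT, a log2 ratio of 0.98, against 0.54 for gamma A and 0.40 for gamma C.

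Beta sums were 81.5 ± 4.25, 113 ± 6.09, 87.8 ± 7.35 and 96.0 ± 5.04 CPM in SAT lean, SAT obese, VAT lean and VAT obese. The beta cluster thus had its highest sums in obese SAT, where every library (105 to 118) exceeded every lean SAT library (79.0 to 87.8). In all 4 obese mice the beta sum was lower in VAT than in SAT by TMM values, with a log2 ratio of -0.23, but the ratio turned to 0.10 when CPM was taken as deposited without a factor. Alpha sums were 1.36 ± 0.198, 2.10 ± 0.809, 3.76 ± 1.74 and 2.87 ± 0.678 CPM, of which members other than Pcdhac2 gave 0.443, 0.486, 0.779 and 0.611 CPM on average. These sums were not tested. TMM factors ran from 0.789 to 0.881 in obese SAT and from 1.01 to 1.25 in VAT, and without them the median log2 ratio of all 13288 tested entries moved from 0.01 to 0.15 for depots in lean mice, from 0.04 to 0.38 for depots in obese mice, from 0.01 to -0.21 for diet in SAT and from 0.03 to 0.01 for diet in VAT. Relative to those medians, the members above it numbered 35, 21, 39 and 22 of 42 with either scaling.

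**Figure D2:**
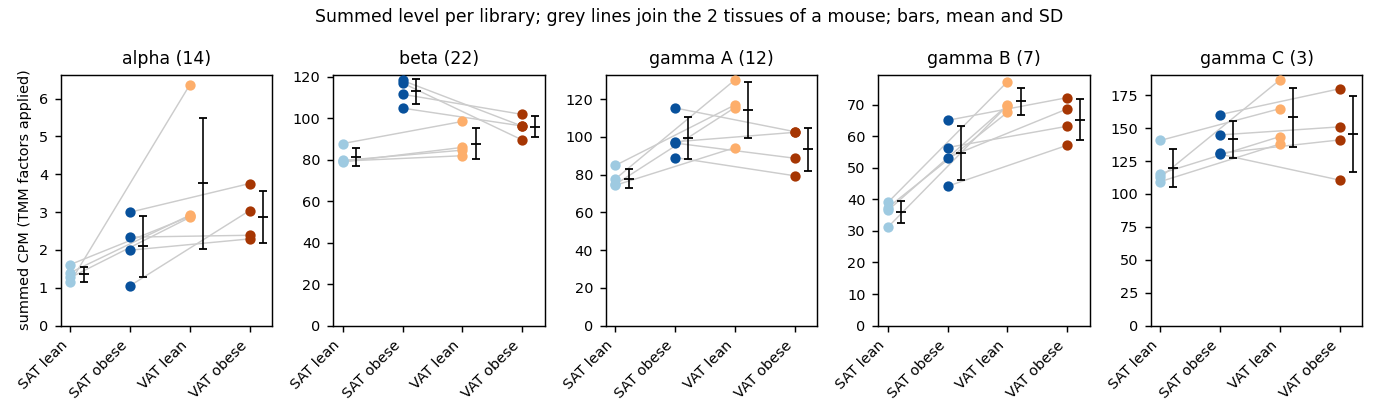
Summed CPM with TMM factors in each of the 16 libraries for the alpha, beta and gamma A, B and C members, with grey lines joining SAT and VAT of a mouse and bars for the mean and SD of 4 mice. Gamma B sums run from 31.2 to 39.0 in lean SAT and from 67.5 to 77.2 in lean VAT. Beta sums are lower in VAT than in SAT of each obese mouse with TMM factors, a direction that turns for the group means without them.

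The comparison of VAT with SAT in lean mice asks whether the depots differ without the diet, and 11 of 22 gamma members passed as higher in VAT. With the mouse as a block, 13 of 42 members passed as higher and 1 as lower (edgeR quasi-likelihood test, adjusted p below 0.05), where 7.98% of all 13288 entries passed as higher, 6.84% as lower and 14.8% either way. Of the 13, 6 were gamma A, 4 gamma B, and the others Pcdhgc3, Pcdhac2 and Pcdhb20. The median log2 fold change was 0.77 over 22 gamma members and 0.29 over 19 beta members, beside 0.01 over all entries. All 7 gamma B members and 10 of 12 gamma A members had a positive value. Groups did not overlap in 11 members with VAT higher and in 2 with VAT lower, where 8.86% and 8.79% of all entries did so. Of the called members, Pcdhac2 and Pcdhga8 lay past a log2 fold change of 1.5, both higher, where 3.75% of all entries passed as higher and 1.69% as lower by that much. Pcdhb8 had 1.82 ± 0.80 at its low counts and did not pass (edgeR adjusted p = 0.137).

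Pcdhga8, an A-type gamma isoform, had 2.80, 2.24, 2.09 and 1.70 CPM in lean SAT and 7.01, 7.03, 7.05 and 5.50 in lean VAT. All VAT libraries exceeded all SAT libraries, the log2 fold change was 1.61 ± 0.27 (SE), the highest of the gamma cluster, and the edgeR adjusted p was 0.000194. Pcdhgb7, a B-type isoform, had 4.45, 5.89, 2.94 and 3.6 CPM in lean SAT and 10.8, 12.3, 11.2 and 9.03 in lean VAT. Its log2 fold change was 1.40 ± 0.23 with an edgeR adjusted p of 0.00012, and its groups did not overlap.

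Pcdhgb6 had 7.49, 10.5, 9.02 and 4.87 CPM in lean SAT and 23.6, 18.1, 14.7 and 20.0 in lean VAT, higher in VAT in 4 of 4 mice (log2 fold change 1.22 ± 0.21, edgeR adjusted p = 0.000224). Pcdhgb5, also of the B type, had 4.28, 4.21, 4.27 and 1.48 CPM in lean SAT and 14.0, 8.35, 8.87 and 7.38 in lean VAT (1.40 ± 0.27, edgeR adjusted p = 0.000754). These B isoforms kept the gap between depots when any mouse was left out. Pcdhga4 had 3.05, 3.37, 5.79 and 7.21 CPM in lean SAT and 7.64, 9.30, 10.9 and 11.6 in lean VAT, without overlap (1.06 ± 0.23, edgeR adjusted p = 0.00221), and held under every alternative.

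Pcdhga9 had 2.80, 1.96, 1.33 and 0.636 CPM in lean SAT and 6.37, 2.98, 3.85 and 4.40 in lean VAT (1.37 ± 0.35). Pcdhga10 had 6.34, 6.45, 4.08 and 3.81 CPM in lean SAT and 6.37, 11.9, 10.9 and 9.80 in lean VAT (0.98 ± 0.24). Pcdhgb4 had 5.10, 3.79, 4.27 and 3.6 CPM in lean SAT and 4.46, 10.3, 8.23 and 10.1 in lean VAT (1.03 ± 0.26). In Pcdhga10 and Pcdhgb4 the VAT library of lean mouse 1 lay within the SAT values, and the groups of Pcdhga9 lay apart. Pcdhga7 (0.77 ± 0.20) and Pcdhga5 (0.53 ± 0.17) were higher in VAT without overlap, and edgeR adjusted p for these 5 members lay between 0.0056 and 0.0336. Each of the 5 lost its call when some lean mouse was left out: Pcdhga9 without mouse 3 or 4, Pcdhga10 without mouse 3, Pcdhgb4 without mouse 2, Pcdhga7 without mouse 2 or 3, and Pcdhga5 without any of the 4.

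The abundant Pcdhgc3 was higher in lean VAT by a log2 fold change of 0.40 ± 0.11 (edgeR adjusted p = 0.0182), in 4 of 4 mice, though its groups overlapped. That call was lost without the mouse block (the edgeR adjusted p ran from 0.0131 to 0.119 over all alternatives), with no filter on low counts and without lean mouse 1. Pcdhac2 was higher by 1.57 ± 0.41 (edgeR adjusted p = 0.0112), and this call was lost without lean mouse 1 or 2, with log2 fold changes of 1.28 to 2.01 over all alternatives. Pcdhb20, a beta gene, was higher by 0.86 ± 0.26 (edgeR adjusted p = 0.0241), with 4.20, 3.23, 2.47 and 2.76 CPM in lean SAT and 7.01, 6.14, 4.17 and 5.61 in lean VAT, where the lowest VAT library lay just below the highest SAT library. The Pcdhb20 call was lost without lean mouse 2, 3 or 4.

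Pcdhb17 went the other way. It had 18.3, 17.4, 22.3 and 14.6 CPM in lean SAT and 7.64, 11.1, 14.4 and 10.1 in lean VAT, lower in VAT in all 4 mice and without overlap. The log2 fold change was -0.71 ± 0.17 (edgeR adjusted p = 0.00698). Without lean mouse 2 or lean mouse 3, 8 members in place of 13 passed as higher. Mesothelial markers, 9 of 9 tested entries higher in VAT, moved with the depot, as did 4 of 7 macrophage entries (sums 1332 to 1895 CPM in lean SAT, 2322 to 3047 in lean VAT) and 4 of 5 B cell entries (5.98 to 12.4 and 38.4 to 275). Adipocyte entries were lower in VAT in 5 of 18 (sums 85964 to 105749 CPM in lean SAT and 42832 to 61377 in lean VAT). Intestinal epithelial entries were higher in 3 of 6 (Epcam, Slc5a1 and Zg16, list sums 14.4 to 21.5 and 13.0 to 49.9 CPM). Fibroblast entries were 4 higher and 3 lower of 12, smooth muscle and pericyte entries 2 and 1 of 6, Schwann cell entries 1 and 1 of 7, and endothelial entries 1 higher of 7. Of the T cell entries 1 of 4 was higher in VAT, and of the 6 neuron entries 1 was higher and 2 lower (sums 15.2 to 49.4 CPM in lean SAT and 33.8 to 68.4 in lean VAT). The 2 lower, Nefl and Nefm, were uneven in lean SAT, at 4.28 ± 5.55 and 3.18 ± 4.07 CPM (mean ± SD). Msln, Upk1b, Wt1 and Muc16 were at 0 in every SAT library. Their part in the differences of the protocadherins was not tested.

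Between the depots of obese mice fewer members passed than between those of lean mice, and the calls went in both directions. Of 42 members, 2 passed as higher in VAT and 4 as lower, against 15.9% and 13.5% of all entries and 29.4% either way. The median log2 fold change was 0.11 over gamma, 0.01 over beta and 0.04 over all entries. Groups did not overlap in 5 members with VAT higher and 5 with VAT lower, where 15.1% and 14.1% of entries did so. No called member lay past a log2 fold change of 1.5, where 6.30% of all entries passed as higher and 3.29% as lower by that much.

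Pcdhb22, the last gene of the beta cluster, had the largest log2 fold change of the 42 members between depots of obese mice. It had 30.3, 26.0, 25.2 and 25.0 CPM in obese SAT and 11.8, 16.2, 14.5 and 10.2 in obese VAT. Every SAT library exceeded every VAT library, with a log2 fold change of -1.01 ± 0.16 and an edgeR adjusted p of 4.67e-05. In lean mice the gene did not pass (0.23 ± 0.16, edgeR adjusted p = 0.407).

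Pcdhga6, an A-type gamma isoform, had 23.1, 22.1, 17.9 and 19.2 CPM in obese SAT and 12.2, 12.1, 12.4 and 9.13 in obese VAT. It was lower in VAT in 4 of 4 mice (-0.84 ± 0.18, edgeR adjusted p = 0.000843), and this call held under every alternative. Pcdhb4 differed by -0.77 ± 0.26 (edgeR adjusted p = 0.0311), with 5.37, 5.07, 6.88 and 5.46 CPM in obese SAT and 2.67, 3.78, 3.82 and 2.90 in obese VAT. The Pcdhb4 call was lost without obese mouse 1, 3 or 4.

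Pcdhb17 was again lower in VAT, with 18.0, 20.3, 18.5 and 17.2 CPM in obese SAT and 13.0, 13.3, 11.0 and 14.2 in obese VAT (-0.53 ± 0.17, edgeR adjusted p = 0.0185). Pcdhgb7 was again higher, with 6.82, 4.75, 5.64 and 4.84 CPM against 8.78, 10.4, 9.45 and 8.28 (0.77 ± 0.21, edgeR adjusted p = 0.00803). These were the 2 members that passed in both depot comparisons, each in the same direction. In obese mice the Pcdhb17 call was lost without mouse 2 or 3 and the Pcdhgb7 call without mouse 2. Pcdhb9, a beta gene, was higher in obese VAT by 0.83 ± 0.25 (edgeR adjusted p = 0.016), a call lost without obese mouse 1 or 2. Without obese mouse 3, 2 members in place of 4 passed as lower, and without obese mouse 1 or 2, 1 in place of 2 as higher. In these mice 14 of 18 adipocyte entries were lower in VAT (sums 72032 to 87960 CPM in SAT and 33890 to 44932 in VAT), 9 of 9 mesothelial, 7 of 7 macrophage, 5 of 5 B cell and 4 of 4 T cell entries were higher. Of the 6 neuron entries 4 were higher in VAT, Tubb3 by 2.91 ± 0.43 and Stmn2 by 1.63 ± 0.25 on the log2 scale among them (sums 20.6 to 23.6 CPM in obese SAT and 44.3 to 62.2 in obese VAT). Fibroblast entries were 4 higher and 4 lower of 12, smooth muscle and pericyte entries 2 and 2 of 6, Schwann cell entries 1 and 1 of 7, endothelial entries 2 lower of 7, and intestinal entries 1 higher of 6. Their part was not tested.

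The diet comparison in SAT asks which members differ between obese and lean mice in subcutaneous fat, and the members that passed were all higher in obese mice. They numbered 8 of 42 (4 beta, 4 gamma), against 6.21% of all entries higher, 4.84% lower and 11.0% either way. A positive value was found in 39 of 42 members, with a median log2 fold change of 0.65 over beta and 0.44 over gamma beside 0.01 over all entries. In 16 members, 11 of them beta, all obese libraries exceeded all lean libraries, and in none the reverse, where 9.61% and 7.64% of all entries did so. At an unadjusted p below 0.05, which makes no allowance for the number of entries, edgeR gave 21 members higher and 0 lower, beside 3340 of all 13288 entries in either direction, and DESeq2 called 9 higher and 0 lower.

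Pcdhga3, an A-type gamma isoform, had 4.12, 4.77, 4.08 and 4.45 CPM in lean SAT and 11.7, 7.81, 7.77 and 8.15 in obese SAT. The groups lay apart, with a log2 fold change of 1.03 ± 0.22 and an edgeR adjusted p of 0.0034. Its neighbour Pcdhgb1 had 2.31, 1.96, 2.56 and 1.48 CPM in lean SAT and 5.44, 6.54, 6.05 and 5.30 in obese SAT. It too showed no overlap (1.43 ± 0.35, edgeR adjusted p = 0.00931), and both calls held under every alternative.

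Pcdhb16 had 5.76, 7.15, 5.98 and 6.15 CPM in lean SAT and 11.1, 8.45, 10.9 and 10.5 in obese SAT (0.72 ± 0.17, edgeR adjusted p = 0.00917). Pcdhb20 went from 4.20, 3.23, 2.47 and 2.76 to 6.98, 4.96, 7.43 and 4.92 CPM (0.92 ± 0.24, edgeR adjusted p = 0.0143). Neither gene's groups overlapped. The Pcdhb20 call was lost without lean mouse 3 or obese mouse 3, and the Pcdhb16 call with no filter or without mouse 1 of both diets. Pcdhga8 rose from 2.80, 2.24, 2.09 and 1.70 to 4.91, 4.86, 3.71 and 4.15 CPM (0.95 ± 0.25, edgeR adjusted p = 0.014), without overlap, a call lost without lean mouse 3 or with no filter.

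Pcdhb22 rose from 18.8, 16.8, 20.1 and 18.4 CPM in lean SAT to 30.3, 26.0, 25.2 and 25.0 in obese SAT, again with no overlap (0.52 ± 0.15, edgeR adjusted p = 0.0325). Its adjusted p ran up to 0.129 when mice were left out or the filter was lifted, so that this call was lost in 8 of 17 alternatives. Pcdhgb6 rose by 0.64 ± 0.20 (edgeR adjusted p = 0.0382), with overlap, and was lost in 9 of 17. Pcdhb8 had the largest value, 2.15 ± 0.63 (edgeR adjusted p = 0.0291), but only 104 counts over all libraries: 0.247, 0.140, 0.190 and 0.212 CPM in lean SAT and 0.383, 0.739, 1.65 and 0.923 in obese SAT, with 3 libraries above 1 CPM among all 16. It was the only called member past a log2 fold change of 1.5, where 1.5% of all entries passed as higher and 1.25% as lower by that much, and its call was lost with no filter and without lean mouse 2 or 3 or obese mouse 4. In 5 further alternatives, among them leaving out lean mouse 1, obese mouse 2 or obese mouse 3, it did not pass the filter and was not tested.

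Leaving out lean mouse 3 or obese mouse 3 gave 4 members in place of 8, and leaving out obese mouse 2 gave 5. In SAT 4 of 7 macrophage entries were also higher with the diet (sums 1332 to 1895 CPM in lean and 2116 to 3075 in obese mice), as was S100b of the 7 Schwann cell entries tested, a list whose sums were 115 to 161 and 174 to 195 CPM. The endothelial gene Vwf (1.64 ± 0.24, edgeR adjusted p = 0.000129) and the smooth muscle and pericyte entries of Acta2 (0.96 ± 0.22, edgeR adjusted p = 0.0065) and Cspg4 (0.91 ± 0.27, edgeR adjusted p = 0.0318) were higher too. Entries of the adipocyte genes Lpl and Cfd, 2 of 18, and of the muscle gene Myl1 were lower. Of 6 neuron entries tested, the neurofilament genes Nefl (-3.22 ± 0.72, edgeR adjusted p = 0.00526) and Nefm (-2.14 ± 0.68, edgeR adjusted p = 0.0457) passed as lower in obese SAT. Lean SAT was uneven for both, with an SD above the mean: 4.28 ± 5.55 CPM for Nefl and 3.18 ± 4.07 for Nefm. Obese SAT had 0.462 ± 0.324 and 0.742 ± 0.418 CPM (mean ± SD). The list summed to 15.2 to 49.4 CPM in lean SAT (median 22.2) and 20.6 to 23.6 in obese SAT (median 22.1). Stmn2 and Uchl1 of that list were present at means of 10.7 and 7.52 CPM in lean SAT and 11.7 and 7.95 in obese SAT. Their part in these differences was not tested.

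The diet comparison in VAT asks the same of mesenteric fat. Of 42 members, 2 beta genes passed as higher in VAT of obese mice and 1 beta and 2 gamma genes as lower, against 6.84% and 4.08% of all entries and 10.9% either way, so that the 5 calls were near the share of all entries. Of 22 gamma members 17 had a negative value (median log2 fold change -0.18), and of 19 beta members 16 had a positive value (median 0.20), while the median of all entries was 0.02. These medians were not tested. Groups did not overlap in 3 members with obese higher and in 3 with obese lower, where 8.35% and 5.0% of all entries did so. No called member lay past a log2 fold change of 1.5, where 2.33% of all entries passed as higher and 0.835% as lower by that much.

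Pcdhb9 stood at 3.18, 2.80, 1.92 and 2.64 CPM in lean VAT and at 9.55, 6.66, 4.49 and 6.66 in obese VAT. Every obese library exceeded every lean library, the log2 fold change was 1.36 ± 0.28 and the edgeR adjusted p 0.00232, a call that held under every alternative. In SAT the same gene had 0.76 ± 0.28 with an edgeR adjusted p of 0.0796. Pcdhb16 went from 6.37, 5.96, 7.91 and 7.93 CPM in lean VAT to 10.3, 10.1, 10.0 and 11.4 in obese VAT (0.56 ± 0.18, edgeR adjusted p = 0.0476). Its groups did not overlap, but the call was lost in 15 of 17 alternatives, among them leaving out any 1 of the 8 mice.

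Pcdhb22 fell from 21.0, 20.6, 25.4 and 19.6 CPM in lean VAT to 11.8, 16.2, 14.5 and 10.2 in obese VAT. The groups lay apart (-0.71 ± 0.16, edgeR adjusted p = 0.00569) and the call held under every alternative. Pcdhga8 fell from 7.01, 7.03, 7.05 and 5.50 to 5.73, 2.96, 3.63 and 2.99 CPM (-0.89 ± 0.24, edgeR adjusted p = 0.0179), with obese mouse 1 just above the lowest lean mouse. That call was lost without lean mouse 2 or 3, without obese mouse 2 or 4 and with no filter.

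Pcdhga5, the second gamma isoform per kb, fell from 22.9, 24.1, 28.7 and 24.8 to 15.7, 20.1, 18.5 and 14.3 CPM without overlap (-0.55 ± 0.17, edgeR adjusted p = 0.0426), and this call was lost in 7 of 17 alternatives. Without lean mouse 2 or 3 or obese mouse 4, 1 member in place of 3 passed as lower. With the diet, 7 of 7 macrophage entries rose in VAT (sums 2322 to 3047 and 5135 to 8283 CPM), and 9 of 18 adipocyte entries fell (42832 to 61377 and 33890 to 44932). Of the others 3 of 5 B cell, 2 of 4 T cell and 1 of 6 neuron entries rose, as did S100b of the 7 Schwann cell entries (list sums 138 to 154 and 180 to 210 CPM). Of 6 intestinal entries, Zg16 (-4.18 ± 0.78, edgeR adjusted p = 0.000987) and Slc5a1 (-3.90 ± 1.09, edgeR adjusted p = 0.0288) passed as lower, from low and uneven lean levels. Zg16 had 2.84 ± 2.42 CPM (mean ± SD) in lean and 0.136 ± 0.157 in obese VAT, and Slc5a1 1.79 ± 1.98 and 0.162 ± 0.162. Epcam, at 3.56 ± 4.24 and 2.41 ± 0.995 CPM, did not pass. The part of these markers was not tested.

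**Figure D3:**
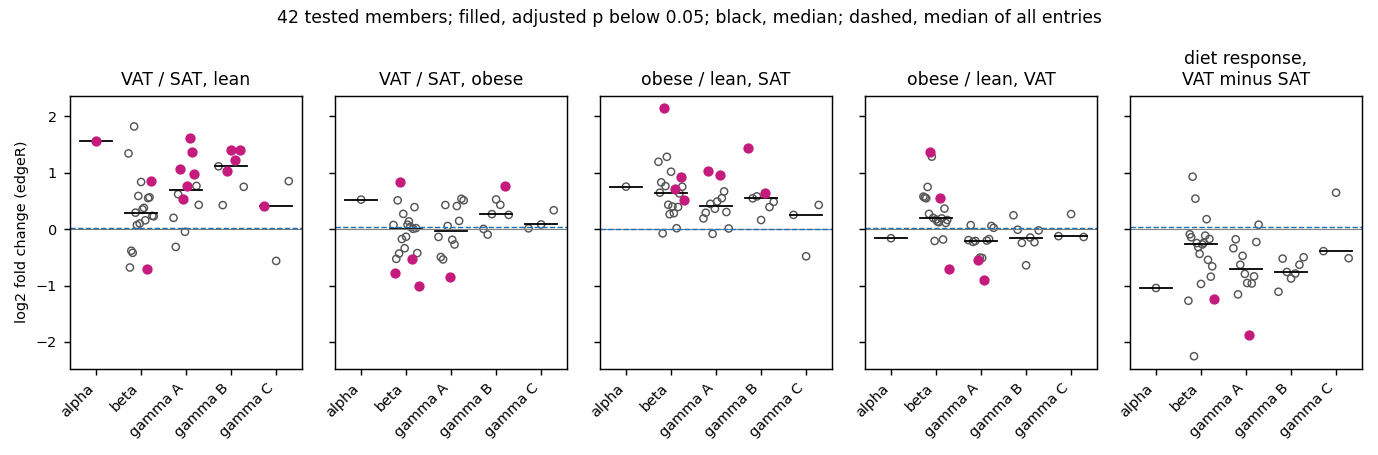
Log2 fold changes (edgeR) of the 42 tested members in the 5 comparisons, by subfamily in chromosomal order, with filled points for adjusted p below 0.05, black bars for medians and a dashed line for the median of all 13288 entries. In lean mice 13 members are called higher in VAT, in obese SAT 8 are called higher, and 37 of 42 values of the depot difference in diet response are negative.

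The test of the difference between the diet responses of VAT and SAT, made within mice, passed for 2 members, both with a lower response in VAT, where 1.29% of all entries passed as lower, 0.888% as higher and 2.17% either way. For Pcdhga8 the difference in log2 fold change was -1.89 ± 0.37 (edgeR adjusted p = 0.00653), and for Pcdhb22 it was -1.24 ± 0.23 (edgeR adjusted p = 0.00378). Both calls held under every alternative run. The study had already listed both genes, from these same libraries, as higher in obese SAT and lower in obese VAT. Only Pcdhga8 passed with a size beyond 1.5, where 0.361% of all entries passed as lower and 0.271% as higher by that much. Negative values were found in 37 of 42 members (median -0.52, against 0.03 over all entries), among them all 7 gamma B and 11 of 12 gamma A members. At an unadjusted p below 0.05 edgeR gave 14 members lower and 1 higher, beside 1950 of all 13288 entries in either direction. No member passed as higher after adjustment by edgeR or DESeq2, while 5 passed as lower with DESeq2, 4 with newer edgeR defaults and 5 without lean mouse 1. Of the cell type markers, 2 of 7 endothelial entries (Vwf and Cldn5), 2 of 6 smooth muscle and pericyte entries (Acta2 and Cspg4) and 2 of 18 adipocyte entries also passed as lower. As higher passed 1 of 7 macrophage and 1 of 5 B cell entries. Medians over these lists were -0.48, -0.04, -0.44, 0.69 and 1.74 in the same order. The part of these markers was not tested.

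The levels of the 2 genes were ordered differently over the groups. Pcdhga8 was lowest in lean SAT (2.21 ± 0.457 CPM, mean ± SD, n = 4) and highest in lean VAT (6.65 ± 0.764), with the obese groups between them at 4.41 ± 0.577 in SAT and 3.83 ± 1.31 in VAT, which overlapped. Pcdhb22 was highest in obese SAT (26.6 ± 2.48) and lowest in obese VAT (13.2 ± 2.69), with the lean groups between them at 18.5 ± 1.36 in SAT and 21.7 ± 2.58 in VAT, which overlapped. Other members with a large difference did not pass, such as Pcdhga3 (-1.16 ± 0.33, edgeR adjusted p = 0.0639) and Pcdhga7 (-0.96 ± 0.27, edgeR adjusted p = 0.0679). Pcdhb8 had the most negative value, -2.25 ± 0.99, with an edgeR adjusted p of 0.277 at its low counts.

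**Figure D4:**
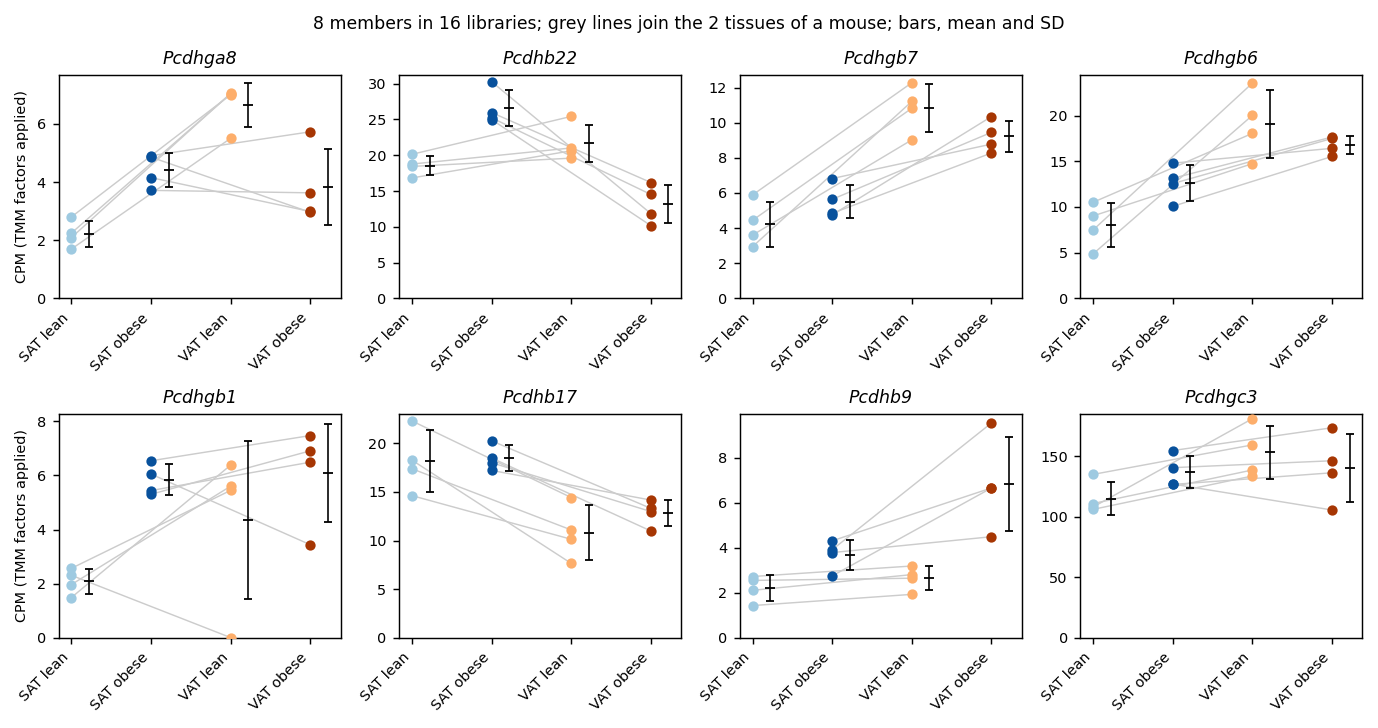
CPM with TMM factors of 8 members in each of the 16 libraries, with grey lines joining SAT and VAT of a mouse and bars for the mean and SD of 4 mice. Pcdhga8 and Pcdhb22 show opposite diet responses in the depots, Pcdhgb7 and Pcdhb17 keep their depot difference in lean and obese mice, and Pcdhgb1 has no count in VAT of lean mouse 1, where 3 counts would equal 2.39 CPM before the factor.

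**Figure D5:**
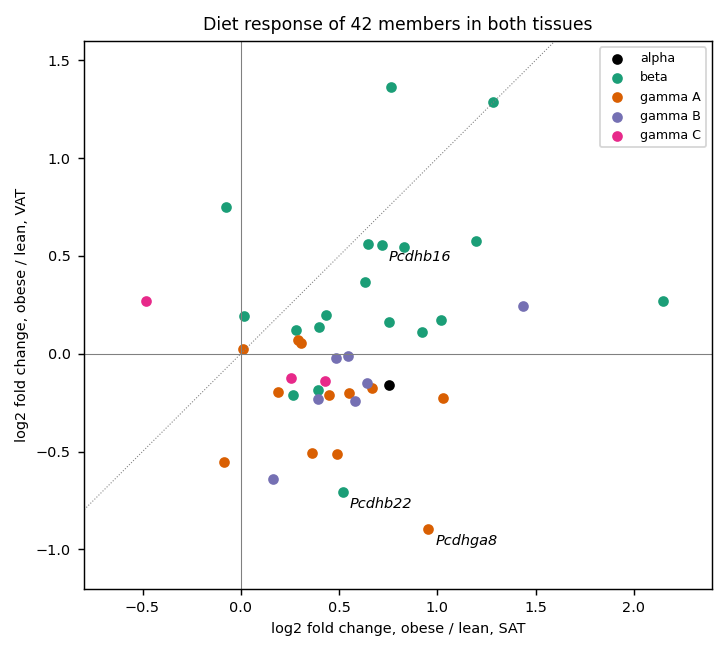
Log2 fold change of obese against lean mice in SAT (horizontal) and VAT (vertical) for the 42 tested members, coloured by subfamily, with a dotted line of equal response. Most points lie right of 0 and below the line, and the named genes are those called in both tissues, Pcdhb16 higher in both and Pcdhb22 and Pcdhga8 higher in obese SAT and lower in obese VAT.

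Over the 5 comparisons 22 members passed at least once and 20 in none. The 20 included Pcdhgc4 and Pcdhgc5, Pcdhgb2 and Pcdhgb8 of the gamma B type, Pcdhga1, Pcdhga2, Pcdhga11 and Pcdhga12 of the gamma A type, and 12 beta genes. Pcdhga11 came near the limit in lean mice, with 3.21, 5.05, 2.56 and 6.15 CPM in SAT and 7.64, 7.39, 6.41 and 6.72 in VAT (0.77 ± 0.26, edgeR adjusted p = 0.0502). Pcdhgc5 had no overlap in the same comparison, 1.15, 1.68, 2.28 and 2.12 against 3.82, 3.16, 3.53 and 2.97 CPM, and did not pass (0.85 ± 0.36, edgeR adjusted p = 0.117). A value that did not pass does not show that the groups were alike.

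Genes outside the clusters were read from lists chosen with earlier results of these data known. Of 12 non-clustered protocadherins only Pcdh7, Pcdh9 and Pcdh12 had an entry tested. Pcdh7, a delta protocadherin, had means of 35.5 ± 6.42, 68.7 ± 6.25, 22.8 ± 2.96 and 32.5 ± 3.13 CPM in SAT lean, SAT obese, VAT lean and VAT obese. It was lower in VAT in lean (-0.60 ± 0.15, edgeR adjusted p = 0.00693) and obese mice (-1.09 ± 0.14, edgeR adjusted p = 3.88e-06) and rose with the diet in SAT (0.95 ± 0.14, edgeR adjusted p = 0.000132) and VAT (0.49 ± 0.15, edgeR adjusted p = 0.037). Pcdh12, found in vascular endothelium, was lower in VAT of obese mice (-0.94 ± 0.19, edgeR adjusted p = 0.000521), and an entry of Pcdh9 was higher in VAT of lean mice (1.94 ± 0.52, edgeR adjusted p = 0.0121). Of the classical and other cadherins, 3 entries were tested and 0 passed in any comparison with edgeR or DESeq2, while at an unadjusted p below 0.05 edgeR gave 1 higher in VAT of lean mice and 1 higher and 1 lower in VAT of obese mice.

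Of 20 genes of promoter choice and chromatin at the clusters, 10 had a tested entry, 13 entries in all. In lean mice 1 was higher in VAT and 2 lower, in obese mice 2 were higher and 1 lower, and with the diet 1 was higher in SAT, against the 14.8%, 29.4% and 11.0% of all entries called either way in these comparisons. For diet in VAT and for the difference in response edgeR called 0 entries, with 1 entry lower at an unadjusted p below 0.05 in each, and DESeq2 called 0 and 1. Smchd1, a chromatin protein known to silence clustered protocadherins, was the entry that passed in lean mice as higher in VAT (0.98 ± 0.25, edgeR adjusted p = 0.0088) and in SAT as higher with the diet (0.91 ± 0.24, edgeR adjusted p = 0.0156), with means of 4.36, 8.23, 8.64 and 7.21 CPM in SAT lean, SAT obese, VAT lean and VAT obese. Nipbl, which loads cohesin, was lower in lean VAT by -0.76 ± 0.20 (edgeR adjusted p = 0.0114), as was Hdac1, a histone deacetylase, by -0.44 ± 0.13 (edgeR adjusted p = 0.0186). In obese mice Trim28 (0.40 ± 0.12, edgeR adjusted p = 0.0153) and an entry of Stag1 (0.83 ± 0.27, edgeR adjusted p = 0.0227) were higher in VAT. An entry of Dnmt3a, a DNA methyltransferase, was lower (-0.87 ± 0.29, edgeR adjusted p = 0.0293), while the sum over the entries of that gene overlapped, at 8.74 to 12.1 CPM in obese SAT and 7.16 to 10.4 in obese VAT.

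Of 19 partners and signaling genes, 11 entries were tested, of which 2 passed for depots in lean mice and 1 for diet in SAT, where 14.8% and 11.0% of all entries did. Pdcd10 (-0.41 ± 0.11, edgeR adjusted p = 0.0155), which binds the constant tail of gamma proteins, and Brk1 (-0.35 ± 0.12, edgeR adjusted p = 0.0437), a WAVE complex subunit, were lower in lean VAT. Adam10, the protease that sheds the outside of gamma protocadherins, rose with the diet in SAT (0.82 ± 0.18, edgeR adjusted p = 0.00354). The other comparisons called 0 entries of this list with edgeR and with DESeq2, and at an unadjusted p below 0.05 edgeR gave 3 lower in VAT of obese mice and 3 higher and 1 lower with the diet in VAT.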

How the data were processed

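The authors deposited raw counts per RefSeq transcript entry and CPM computed from them, for 16 bulk libraries. Per the submitters' processing notes the tools included Trim Galore 0.6.6, HISAT2 2.2.0 and HTSeq 0.13.5 on GRCm39, and the strand setting and the treatment of reads shared by isoforms were not given in the sources used here. Deposited CPM equalled counts over the column total, times 1000000. Symbols came from RefSeq (GRCm38.p6 table, names only) and matched 81.9% of entries. Exons, and with them the own lengths behind values per kb, came from GENCODE M39 on GRCm39. Counts were per RefSeq entry, whose ends may differ, so values per kb are approximate. Members and lists were chosen with earlier results of these data known.

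Counts were fitted with edgeR 4.0.16 (R 4.3.3), all 16 libraries together, TMM factors, entries with CPM above 1 in at least 3 libraries (13288), quasi-likelihood F test (legacy), Benjamini-Hochberg adjustment over all of them, called at 0.05. Depot comparisons and the difference in diet response had the mouse as a block, and diet comparisons had 4 group means. The pairing came from the mouse in the labels. Deviations of SAT and VAT of a mouse correlated at -0.009 to 0.173 (median 0.0759, 8 pairs), against a median of -0.0392 in other pairs of the diet. Libraries of a tissue with the same number but the other diet, from different mice, had a median of 0.0679. Those with another number had -0.0173, so the correlation alone does not single out the mouse. The biological coefficient of variation was 0.211. The SE of a log2 fold change was its size over the root of F. Scripts were tested on simulated data. Sums over clusters had no test. Intervals and floors cover counting error only.

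Named members were those called in any comparison (at most 10 each by adjusted p), the 2 with the highest mean CPM per subfamily, Pcdhga8 and Pcdhb22, which the study names, the C-type members, and at most 5 called entries of each other list and comparison. Pcdhga11, Pcdhb8 outside SAT diet, and Pcdhga3 and Pcdhga7 in the difference of response, were chosen after their values were seen. Alternatives were RLE factors, filters, DESeq2 1.42.0, other blocks, newer edgeR defaults, tissue subsets and mice left out.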

Additional observations from a re-analysis of the deposited data

Results flagged for a closer look

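A library stood far from the other 3 of its group in 11 of 116 groups of member values and sums tested, by the gap to its nearest neighbour as a share of the range, and chance gives about 1 in 20 such groups. High libraries were Pcdhac2 at 5.096 CPM and the alpha sum at 6.37 CPM in VAT of lean mouse 1, the shallowest library, Pcdhga3 at 11.65 CPM in SAT of obese mouse 1, Pcdhga7 at 10.66 CPM in SAT of lean mouse 2, and Pcdhgc3 at 134.8 CPM and the beta sum at 87.84 CPM in SAT of lean mouse 3. Low libraries were Pcdhga6 at 9.132 CPM in VAT of obese mouse 4, Pcdhga8 at 5.504 CPM in VAT of lean mouse 4, Pcdhgb1 at 0 CPM in VAT of lean mouse 1, Pcdhgb5 at 1.484 CPM in SAT of lean mouse 4 and Pcdhgc5 at 1.432 CPM in VAT of obese mouse 3. The diet response differed between the depots, by the test of the difference itself, for Pcdhga8 (-1.885 on the log2 scale, VAT minus SAT) and Pcdhb22 (-1.235).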

How the results depend on the processing

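Of 35 calls of single members, none changed sign in 568 recomputed values and 88 of these missed the threshold. With no filter on low counts, which raised the number of entries adjusted over, 0 members passed as higher for depots in obese mice, 3 as higher for diet in SAT, and 1 as higher and 1 as lower for diet in VAT. For diet in VAT 1 member in place of 2 passed as higher with RLE factors, filterByExpr, the 8 libraries of the tissue alone, or counts summed per gene symbol. The difference in response had 4 members lower with the newer edgeR defaults and 5 with DESeq2, and the cause was not tested. With CPM as deposited, log2 ratios were 0.25, 0.10 and 0.26 for beta sums and 0.70, 0.37 and 0.12 for gamma sums (depots in lean mice, depots in obese mice, diet in SAT), a change that came from leaving out the factors. Leaving out a mouse gave 8 to 14 members higher and 1 to 1 lower for depots in lean mice, 1 to 2 and 2 to 5 in obese mice, 4 to 9 and 0 for diet in SAT, 1 to 1 and 1 to 4 for diet in VAT, and 2 to 5 lower for the difference. Leaving out lean mouse 1 and obese mouse 1 together, chosen after depths were seen, gave 1 higher for depots in obese mice, 5 for diet in SAT and 1 for diet in VAT. Blocking diet comparisons on the replicate number, which 7 of 16 libraries matched best across diets (correlations -0.0942 to 0.173), gave 10 members higher for diet in SAT and, for diet in VAT, 1 higher and 3 lower. Without the mouse block, 13 and 1 members passed for depots in lean mice, 2 and 5 in obese mice and 2 lower for the difference, and Pcdhgc3 lost its call. Depth limits members under about 1 CPM, above all in the 2 shallow VAT libraries.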
